A study of Mus musculus with 100 samples.

Results

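The chromatin around 10 cell cycle genes of mouse macrophages is described here: Myc, the D-type cyclins Ccnd1, Ccnd2 and Ccnd3, the kinase gene Cdk6, the inhibitor genes Cdkn1a and Cdkn1b, and E2f1, E2f2 and Rb1. A region belonged to a gene when the ChIP-seq tables listed that gene as its nearest transcription start site (TSS). By this rule, 10 of 18524 genes and 809 of 610301 regions in 15 tables were taken. The rule used the gene name alone and no measured value. Nearness to a TSS does not show which gene a region acts on.

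ChIP-seq of H3K27ac and of 8 factors came from bone marrow-derived macrophages (BMDMs) and from bone marrow cells differentiated to osteoclasts, with 2 libraries per group. Wild type BMDMs received vehicle (Veh) or the TLR4 agonist Kdo2 lipid A (KLA, 6 h) and were used for NCoR, HDAC3, PGC1β, ERK1, p300, p65, Fosl2 and PU.1. The p300 control is described as KLA at 0 h rather than as a 6 h vehicle. For PGC1β, another set of wild type BMDMs received DMSO with Veh, DMSO with KLA, or an ERK inhibitor (ERKi) with KLA, and NCoR was also measured with ERKi and KLA. Osteoclast cultures were sampled at day 0 and day 4 for ERK1 and p300, and their titles call all of them WT. Names of both ERK1 day 0 libraries and of the first ERK1 day 4 library read NCoRWT, and that of the last does not. H3K27ac was measured in 3 experiments. In the first, NCoR flox/flox BMDMs (called WT) and NCoR flox/flox LysMCre BMDMs (called NKO) received Veh or KLA, so that both genotypes carried the floxed allele and NKO alone carried the Cre, which the lysozyme M promoter drives in myeloid cells. In the next, wild type BMDMs received DMSO with Veh, DMSO with KLA, or the HDAC3 inhibitor RGFP966 with KLA. In the last, PGC1b flox/flox BMDMs without (flox) or with LysMCre (flox Cre) received Veh or KLA. Library names in the labels give the strain C57Bl6 for all these groups. The labels give no age for the mice, and nothing in them says whether the 2 libraries of a group came from separate animals, so p-values measure the spread between libraries only.

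Progression from G1 to S phase depends on D-type cyclins bound to Cdk4 or Cdk6, which phosphorylate the retinoblastoma protein Rb1 and so release E2F transcription factors that switch on S phase genes. The proteins p21 and p27, encoded by Cdkn1a and Cdkn1b, restrain cyclin-dependent kinases, and Myc promotes growth and proliferation. BMDMs divide in response to M-CSF and are known to stop doing so under TLR4 ligands, which send NF-κB (p65) and AP-1 (Fosl2 is a subunit) to enhancers that the macrophage factor PU.1 marks. NCoR is a co-repressor that carries the deacetylase HDAC3, p300 acetylates H3K27 at active enhancers, and PGC1β is a co-activator.

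Libraries held 4.30 to 21.5 M tags, of which 2.79% to 52.8% lay in the listed regions, and replicates correlated with r of 0.484 to 0.978 across regions. Values are tags per 10 M tags of the library (tags per 10 M). A region's position is given in kb from the nearest TSS of its gene, with negative values upstream of that TSS. At Ccnd3, Cdkn1a, E2f1 and E2f2 the positions refer to different TSSs, so their order is not always that along the chromosome. A region is said to have risen or fallen when its edgeR adjusted p was under 0.05 and its change over 2-fold, and changes are log2 fold changes ± SE. Bulk chromatin cannot tell a site used by fewer cells from fewer tags per cell. Promoter regions were listed for 8 to 10 of 10 macrophage markers in the factor tables, and for 0 of 5 B cell markers in all 15 tables. At the promoter of Ncor1, H3K27ac ranged from 44.8 to 51.7 in WT and from 54.7 to 70.2 in NKO, and acetylation of a promoter does not measure the deletion.

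Stretches of 200 bp around the centres of 7 regions that carry the results are printed here (mm10, plus strand, sequence from the RefSeq record of GRCm38.p6). The first 3 are sites that several factors gained with KLA, the next 3 are sites that factors lost, and the last is the site of Myc that all 8 factors shared. Capitals mark matches, on either strand, to AP-1 TGANTCA, kB GGAANNNCC, PU.1 GAGGAAG, C/EBP TTGCNNAA, the E-box CACGTG or E2F GCGGGAA.
E2f1 -4.4 kb, chr2:154574237-154574436: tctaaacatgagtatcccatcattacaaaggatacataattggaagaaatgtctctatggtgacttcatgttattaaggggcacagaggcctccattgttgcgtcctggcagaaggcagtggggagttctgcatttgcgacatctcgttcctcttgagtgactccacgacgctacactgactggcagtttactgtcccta
Ccnd1 -52.1 kb, chr7:144991878-144992077: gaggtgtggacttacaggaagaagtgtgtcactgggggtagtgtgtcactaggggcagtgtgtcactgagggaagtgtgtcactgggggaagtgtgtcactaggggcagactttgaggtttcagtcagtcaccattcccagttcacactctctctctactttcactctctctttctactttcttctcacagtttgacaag
Cdk6 +12.0 kb, chr5:3355794-3355993: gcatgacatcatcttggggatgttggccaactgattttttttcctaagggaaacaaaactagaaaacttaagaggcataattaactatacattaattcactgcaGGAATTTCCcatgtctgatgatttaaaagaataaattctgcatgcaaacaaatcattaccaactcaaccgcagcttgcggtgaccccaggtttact
Cdk6 -145.3 kb, chr5:3198480-3198679: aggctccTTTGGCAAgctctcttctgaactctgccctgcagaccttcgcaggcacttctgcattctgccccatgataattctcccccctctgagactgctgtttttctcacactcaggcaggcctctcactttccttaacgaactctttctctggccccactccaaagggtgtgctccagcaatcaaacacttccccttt
Ccnd3 -26.0 kb, chr17:47567339-47567538: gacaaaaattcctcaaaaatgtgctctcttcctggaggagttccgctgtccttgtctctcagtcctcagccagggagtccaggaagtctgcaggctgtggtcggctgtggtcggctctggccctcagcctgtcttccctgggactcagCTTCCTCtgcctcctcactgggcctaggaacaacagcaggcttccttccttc
Rb1 -11.1 kb, chr14:73336781-73336980: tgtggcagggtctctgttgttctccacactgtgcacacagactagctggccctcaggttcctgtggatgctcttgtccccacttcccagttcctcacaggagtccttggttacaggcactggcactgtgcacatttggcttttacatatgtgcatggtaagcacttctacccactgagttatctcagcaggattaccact
Myc +14.4 kb, chr15:61999687-61999886: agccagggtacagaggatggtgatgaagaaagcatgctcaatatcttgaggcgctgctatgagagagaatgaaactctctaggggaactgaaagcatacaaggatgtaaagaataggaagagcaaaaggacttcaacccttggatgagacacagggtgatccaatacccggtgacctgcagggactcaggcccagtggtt

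At Cdk6 +12.0 kb a kB match reads on both strands at bases 105 to 113. The Cdk6 -145.3 kb site held a C/EBP match and Ccnd3 -26.0 kb a PU.1 match, both on the minus strand, and the other 4 windows held no match. Within 200 bp, 23.1% of 67990 p300 regions held AP-1, 16.9% kB, 23.3% PU.1 and 17.7% C/EBP, and the corresponding shares of the 107 p300 regions of the 10 genes were 19.6%, 17.8%, 17.8% and 15%. The E-box share at the 10 genes was above that of all regions for p300 (9.35% against 4.35%), near it for PU.1 (4.11% against 3.78%) and below it for p65 (2.5% against 3.97%), NCoR (2.78% against 4.3%) and HDAC3 (3.08% against 4.33%). The E2F motif was in 2 to 5 regions of the 10 genes per table, 2.78% to 5%, against 1.28% to 1.58% of all regions in these 5 tables. A match is a run of letters and not a bound site.

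With KLA, factors both arrived at and left the 10 loci. Of 548 regions tested for the 8 factors, 108 rose and 73 fell. NCoR rose at 10 of 72 regions (13.9%, against 23.4% of all NCoR regions) and fell at 10 (13.9%, against 16.7%). HDAC3 rose at 11 of 65 (16.9%, against 27.5%) and fell at 6 (9.23%, against 11.3%). For both parts of the co-repressor, the share that rose was under that of all regions. The same held for each of the 8 factors, by little for ERK1 and PU.1. PGC1β rose at 9 of 63 (14.3%, against 16.4%) and fell at 6 (9.52%, against 6.35%). ERK1 rose at 4 of 41 (9.76%, against 10.3%) and fell at 2 (4.88%, against 2.53%). Fosl2 rose at 3 of 47 (6.38%, against 11.4%) and fell at 2 (4.26%, against 4.19%). These 3 had few calls in either direction. p300 rose at 31 of 107 (29%, against 42.1%) and fell at 21 (19.6%, against 12.9%). p65 rose at 37 of 80 (46.2%, against 57%) and fell at 7 (8.75%, against 5.43%). PU.1 went mostly down, falling at 19 of 73 (26%, against 21.7%) and rising at 3 (4.11%, against 4.53%).

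The median log2 change at the 10 loci lay below that of all regions for each of the 8 factors, by amounts that were not tested. It was 0.32 against 0.65 for p300, 1.00 against 1.46 for p65, 0.02 against 0.27 for HDAC3, -0.02 against 0.10 for NCoR and -0.50 against -0.41 for PU.1. It was -0.18 against 0.06 for PGC1β, 0.17 against 0.26 for ERK1 and -0.30 against -0.14 for Fosl2. TMM scaling, which assumes that most regions do not change, moved the median of all regions by -1.22 for p65, -0.52 for p300, -0.28 for HDAC3, -0.20 for ERK1, -0.11 for PGC1β and +0.42 for PU.1. Under TMM, rises and falls at the 10 loci numbered 14 and 18 for p65, 21 and 31 for p300, 9 and 10 for HDAC3, 3 and 3 for ERK1, and 5 and 11 for PU.1. DESeq2 gave Fosl2 5 rises and 7 falls. Counts also rested on single libraries: without the first KLA library p65 kept 16 calls in place of 44, p300 30 in place of 52 and ERK1 1 in place of 6. Without the first Veh library HDAC3 had 8 calls, PGC1β 5, Fosl2 0 and NCoR 31, and without the last KLA library NCoR had 9 calls and Fosl2 15.

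**Figure D1:**
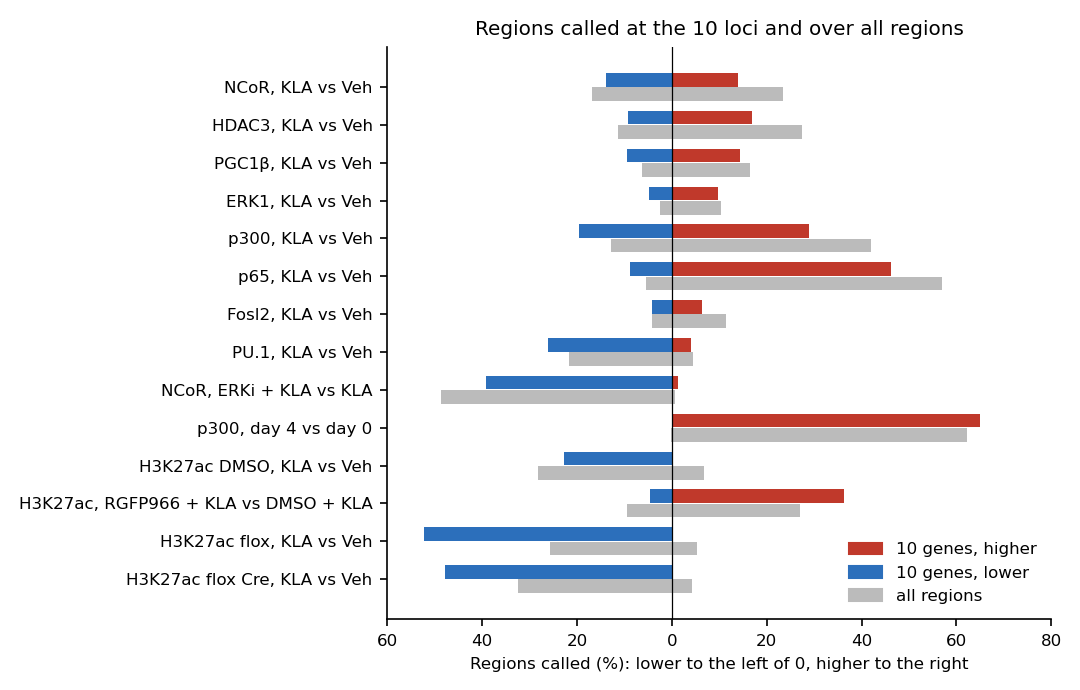
Share of tested regions that fell (left of 0) or rose (right of 0), in percent, for regions of the 10 genes and for all regions of the same table, in each of 14 comparisons. p65 rose at 46.2% of the regions of the 10 genes and at 57% of all regions, and NCoR with the ERK inhibitor fell at 39.2% and 48.6%.

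Regions of different tables whose centres lay within 500 bp were joined, which gave 151 sites, 19 of them listed for all 8 factors and 59 for 1 factor or none. Of 142 sites with a factor peak, 54 had at least 1 factor that rose, 42 at least 1 that fell, 4 both and 50 no call. Beyond 2 kb of the TSS 93 of 443 regions rose (21%), against 29.6% of all such regions when each factor is given its weight among the 443. Within 2 kb 15 of 105 rose (14.3%, against 15.4%). Falls made up 57 (12.9%, against 11.1%) and 16 (15.2%, against 11.3%). The genes differed, and each is set here against all regions at its own mix of factors, with no test. Cdk6 held the most rises, 55 of 204 regions, at a share near the background (27%, against 27.7%). E2f1 rose at 7 of 14 regions (50%, against 24.2%) and Ccnd2 at 11 of 28 (39.3%, against 29.3%). Ccnd3 rose at 2 of 64 (3.12%, against 25.4%) and fell at 13 (20.3%, against 11.2%). Myc rose at 4 of 35 (11.4%, against 28.1%) and fell at 11 (31.4%, against 10.2%). Regions of several factors at one site are not independent of each other.

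Myc, whose protein is a transcription factor of growth and proliferation, lost factors near its TSS and lost PU.1 downstream. Its one site listed for all 8 factors lay at +14.4 kb, between genes. PU.1 there measured 269 and 278 with Veh and 141 and 133 with KLA (-0.998 ± 0.10, adjusted p = 7.19e-18), which is just under the 2-fold limit. NCoR went from 413 and 540.2 to 305 and 268 (-0.74 ± 0.19, adjusted p = 0.0083), also under 2-fold. For these factors the Veh and KLA libraries did not overlap. p300 measured 129 and 122 with Veh and 120.2 and 132 with KLA (0.01 ± 0.17). p65 rose from 37.6 and 56.9 to 130.2 and 119.7 (1.41 ± 0.29, adjusted p = 0.00141), a call that ended under TMM, under DESeq2 and without the first KLA library (adjusted p = 0.0542).

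At the Myc 5' end, in the 5' UTR at +0.2 kb, ERK1, a kinase, fell from 36.2 and 31.2 to 3.69 and 8.17 (-2.49 ± 0.73, adjusted p = 0.0439). PGC1β fell at the same place from 25.3 and 22.8 to 6.55 and 5.72 (-1.97 ± 0.54, adjusted p = 0.0117). p300 there went from 11.9 and 31.5 to 5.12 and 4.86 (-2.10 ± 0.58, adjusted p = 0.00472). All KLA libraries were below all Veh libraries for each factor. These calls were thin: that of ERK1 ended without the first Veh or either KLA library (adjusted p = 0.0622 to 0.172), that of PGC1β without either Veh library (0.0789 to 0.129), and that of p300 without the last Veh or either KLA library (0.0603 to 0.0969). A more distal region at +17.7 kb, chosen after its values were seen, lost p300, from 38.9 and 50.6 to 13.3 and 11.9 (-1.82 ± 0.37, adjusted p = 0.000525), and PU.1, from 123 and 124 to 54.3 and 61.2 (-1.10 ± 0.15, adjusted p = 3.01e-11). The PU.1 change there was under 2-fold with TMM and DESeq2. Promoter p65, at -1.7 kb, went from 15.8 and 4.66 to 41.4 and 36.9 (1.92 ± 0.55, adjusted p = 0.0105), a call that ended without either KLA library (adjusted p = 0.108 and 0.149) and under TMM and DESeq2.

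**Figure D2:**
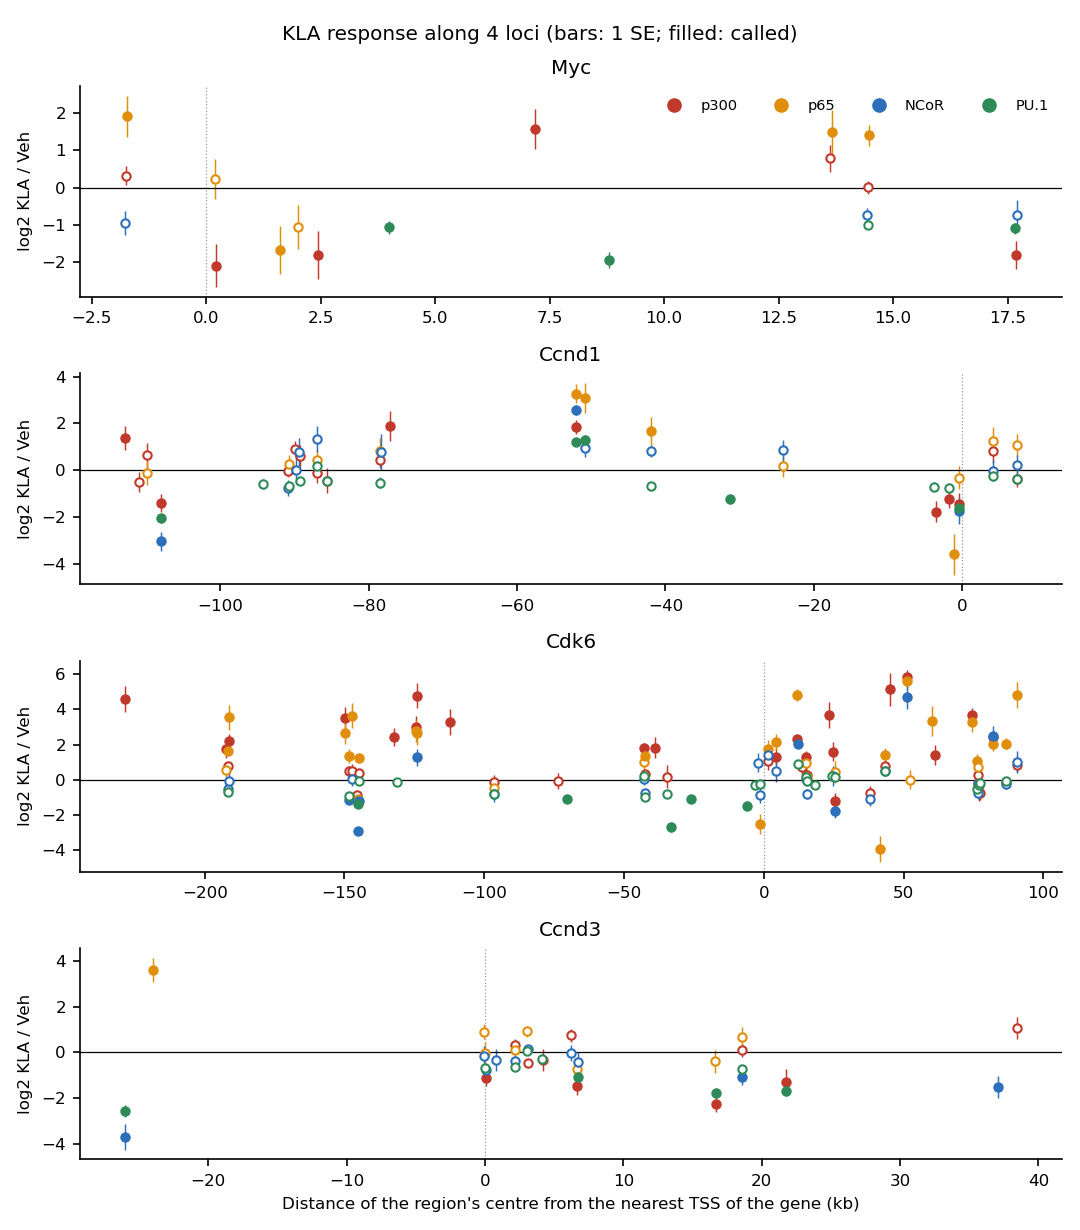
log2 ratio of KLA to Veh (bars, 1 SE) of each p300, p65, NCoR and PU.1 region against its distance from the nearest TSS of the gene in kb, at Myc, Ccnd1, Cdk6 and Ccnd3, with filled points for regions that passed the test and the 2-fold limit. Distances at Ccnd3 refer to different TSSs. At Cdk6, p300 rose at 20 of 41 regions (against 42.1% of all p300 regions) and p65 at 20 of 31 (against 57%), while PU.1 fell at 5 of 26 (against 21.7%).

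Ccnd1, which encodes cyclin D1, gained factors at a distal site and lost them at its promoter. Of its 94 regions 17 rose (18.1%, against 25.6%) and 13 fell (13.8%, against 11.6%). Of the 10 within 2 kb of the TSS 5 fell (50%, against 12.2%). Beyond 2 kb 17 of 84 rose, a share below the background (20.2%, against 27.9%). The gained site lies at -52.1 kb between genes and was listed for all 8 factors, of which 7 rose. NCoR measured 47.8 and 49.4 with Veh and 304 and 273 with KLA (2.57 ± 0.22, adjusted p = 4.57e-05). HDAC3 went from 24.7 and 44.2 to 208 and 288 (2.82 ± 0.39, adjusted p = 1.03e-11). So the co-repressor and its deacetylase both rose there, and so did p65. p65 went from 7.88 and 10.3 to 74.8 and 101 (3.27 ± 0.41, adjusted p = 5.71e-05). p300 went from 19.4 and 19.7 to 67 and 74 (1.85 ± 0.29, adjusted p = 4.77e-05). ERK1 had the largest ratio, from 4.72 and 3.47 to 62.7 and 78.9 (4.08 ± 0.62, adjusted p = 0.00594). PU.1 and PGC1β rose less. PU.1 went from 54.8 and 39.2 to 115 and 104 (1.20 ± 0.16), and without the last Veh library its change was 0.997, just under 2-fold. PGC1β went from 15.3 and 19.5 to 51.3 and 60.1 (1.67 ± 0.37), with an adjusted p of 0.113 without the first Veh library. Fosl2 measured 60.7 and 22 with Veh and 93.1 and 230.3 with KLA (1.99 ± 0.78, adjusted p = 0.0639), which did not pass.

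Near the Ccnd1 TSS, at -0.4 kb, PU.1 fell from 138 and 138 to 48.4 and 42.1 (-1.61 ± 0.15, adjusted p = 8.53e-19) and NCoR from 37 and 60 to 22.7 and 6.92 (-1.73 ± 0.55, adjusted p = 0.0244). p300 fell at -1.8 kb from 35.1 and 48.6 to 20 and 15.1 (-1.25 ± 0.37, adjusted p = 0.00713). In each case both KLA libraries were below both Veh libraries, but the NCoR call ended without the last KLA library (adjusted p = 0.235) and the p300 call without the last library of either group (adjusted p = 0.0218 with a change under 2-fold, and 0.0877). Fosl2 at -95.1 kb was 31 and 21 with Veh and 0 in both KLA libraries, at least 11.1-fold lower, and that call ended without either Veh library (adjusted p = 0.735 and 0.910). A region at -108.0 kb, chosen after its values were seen, lost 5 of the 6 factors listed there. NCoR at -108.0 kb went from 82.4 and 87.1 to 13 and 7.61 (-3.05 ± 0.40, adjusted p = 0.000289) and PU.1 from 104 and 94.6 to 18.3 and 29.3 (-2.06 ± 0.20, adjusted p = 2.3e-18).

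Ccnd2, which encodes cyclin D2, gained factors at its promoter. Of its 10 regions within 2 kb of the TSS, over all factors, 9 rose, against 19.4% of all such regions. HDAC3 at +0.1 kb went from 5.82 and 3.32 to 25.2 and 45.7 (2.90 ± 0.69, adjusted p = 0.000135). NCoR at -0.8 kb went from 7.17 and 10.6 to 38.9 and 36 (2.06 ± 0.49, adjusted p = 0.00642). Both started from low Veh levels, as did the activators. p300 at the TSS went from 4.39 and 0 to 22.5 and 15.1 (3.04 ± 0.74, adjusted p = 0.00211), PGC1β from 2.35 and 3.72 to 18.6 and 20 (2.62 ± 0.63, adjusted p = 0.00556) and p65 from 8.76 and 3.73 to 31.4 and 30.8 (2.29 ± 0.57, adjusted p = 0.00478). Single libraries carried several of these calls: that of NCoR ended without either KLA library (adjusted p = 0.114 and 0.139), that of p300 without the first KLA library (0.131), that of PGC1β without the first Veh library (0.0715) and that of p65 under TMM, under DESeq2 and without either KLA library (0.107 and 0.116). A p65 region at -1.5 kb, chosen after its values were seen, had 0 tags in both Veh libraries and 33.4 and 29.4 with KLA, at least 23.2-fold higher, and its call outlasted the removal of each library. The strongest Ccnd2 site, at -12.0 kb and annotated as an intron, was listed for all 8 factors and did not pass for any of them. There NCoR measured 135 and 180.1 with Veh and 130.4 and 114 with KLA, and PU.1 213 and 246 and 188 and 159.

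Ccnd3, which encodes cyclin D3, had 13 falls and 2 rises among 64 regions, and the other 49 were not called. At -26.0 kb, which the annotation places in an intron of the gene, HDAC3 fell from 66.9 and 59.7 to 1.76 and 10.5 (-3.81 ± 0.59, adjusted p = 2.65e-09). NCoR fell there from 43 and 65.9 to 5.67 and 2.77 (-3.68 ± 0.55, adjusted p = 0.000556), and PU.1 from 59 and 51 to 7.2 and 11.5 (-2.55 ± 0.27, adjusted p = 4.44e-16). The groups were far apart for all 3 factors, and the calls outlasted the removal of each library. At +16.7 kb, chosen after its values were seen, p300 fell from 53.3 and 68.3 to 9.21 and 16.2 (-2.26 ± 0.36, adjusted p = 5.42e-05) and PU.1 from 84.8 and 93.4 to 26.2 and 26.1 (-1.76 ± 0.20, adjusted p = 1.16e-14). The regions at +16.7 and +3.1 kb take their distance from an earlier TSS than that at -26.0 kb, which lies downstream of both. At the promoter p300 fell from 58.3 and 41.4 to 27.1 and 18.4 (-1.13 ± 0.34, adjusted p = 0.00813), with an adjusted p of 0.116 without the last KLA library and a change of -0.86 without the first Veh library. The shared site at +3.1 kb, in an intron and the strongest for NCoR, HDAC3, p300 and p65, held NCoR at 311 and 343 with Veh and 379.9 and 349 with KLA, and PU.1 at 222 and 184 and 191 and 232, with no call for any factor.

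Cdk6, the kinase partner of the D-type cyclins, had the most regions and the most gains, from -228 kb to +90.6 kb of its TSS. At +12.0 kb, in an intron, 6 of 8 factors rose. p65 went from 7.88 and 5.59 to 199.7 and 181 (4.79 ± 0.34, adjusted p = 1.53e-06) and p300 from 33.2 and 31.5 to 189.8 and 135 (2.32 ± 0.23, adjusted p = 3.38e-07). HDAC3 went from 53.8 and 52.5 to 219 and 242 (2.11 ± 0.37), NCoR from 39.4 and 38.8 to 146 and 179 (2.05 ± 0.26) and PGC1β from 17 and 20 to 106 and 67.5 (2.20 ± 0.35). For each of them the KLA libraries lay above the Veh libraries. The HDAC3 call ended without either Veh library (adjusted p = 0.0788 and 0.0858), and that of Fosl2 (2.86 ± 0.79) without either Veh library (0.712 and 0.780). ERK1 measured 58.2 and 15 with Veh and 114 and 73.5 with KLA (1.40 ± 0.54, adjusted p = 0.102), which did not pass. PU.1, at +12.1 kb, measured 46.5 and 44.2 with Veh and 88.3 and 84.1 with KLA, a rise under 2-fold that was not called.

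**Figure D3:**
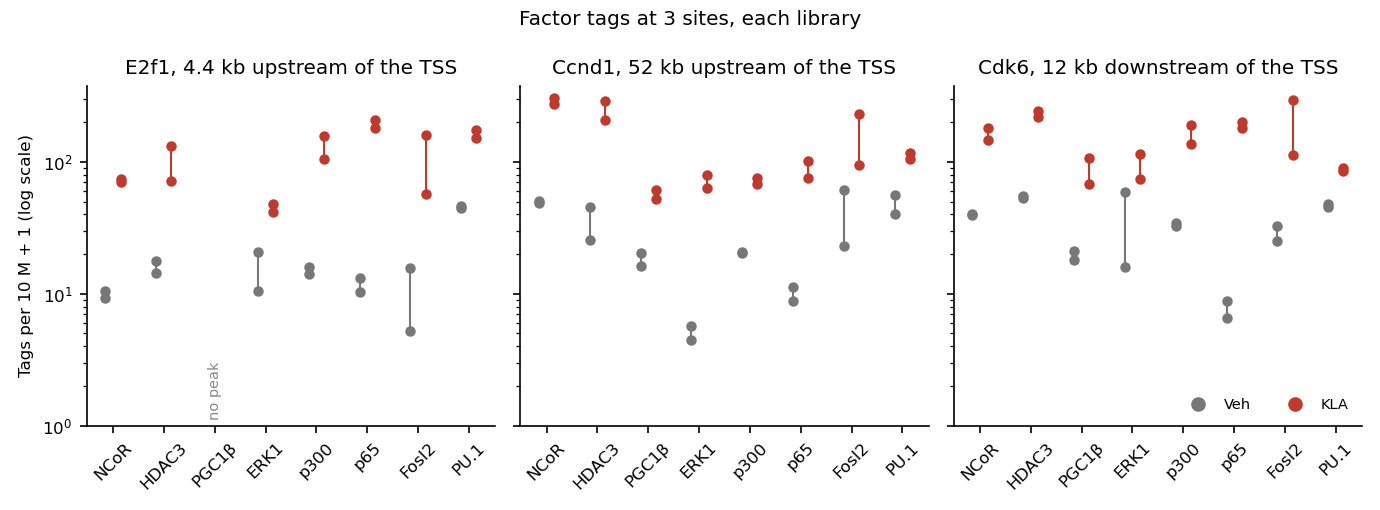
Tags per 10 M plus 1 on a log axis in each Veh and KLA library, for the 8 factors at E2f1 -4.4 kb, Ccnd1 -52.1 kb and Cdk6 +12.0 kb, where "no peak" marks a factor without a region. At Cdk6 +12.0 kb p65 sits at 7.88 and 5.59 with Veh and 199.7 and 181 with KLA.

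The Cdk6 site at -145.3 kb, between genes, went the other way. NCoR fell from 415 and 479 to 68.8 and 51.9 (-2.89 ± 0.21, adjusted p = 2.85e-05) and HDAC3 from 339 and 316 to 52.7 and 77.3 (-2.37 ± 0.39, adjusted p = 2.99e-08). PU.1 fell from 290.1 and 312 to 126 and 110.2 (-1.35 ± 0.10, adjusted p = 4.68e-26), a change under 2-fold with TMM and DESeq2. With Veh this was the strongest Cdk6 region of NCoR and PU.1. PGC1β went from 44.1 and 44.2 to 21.8 and 8.58 (-1.63 ± 0.45, adjusted p = 0.0124) and ERK1 from 66.1 and 83.2 to 24.6 and 19.1 (-1.77 ± 0.46, adjusted p = 0.0284). The PGC1β call ended without either Veh library (adjusted p = 0.0817 and 0.0831) and that of ERK1 without the last Veh or either KLA library (0.0753 to 0.135). p300 held more of its level, going from 66.4 and 88.7 to 42.5 and 42.7 (-0.86 ± 0.25, adjusted p = 0.00664), and Fosl2 went from 123 and 86 to 20.9 and 30.4 (-2.00 ± 0.85, adjusted p = 0.0967). p65 differed between neighbouring peaks, falling at -145.3 kb from 53.4 and 64.3 to 21.4 and 34.9 (-1.06 ± 0.38, adjusted p = 0.0286) and rising at -144.8 kb from 43.8 and 45.7 to 102 and 109 (1.24 ± 0.28, adjusted p = 0.00244). Both p65 calls ended without either KLA library (adjusted p = 0.0540 to 0.285), the fall also without the last Veh library, where it was -0.92, and the rise under TMM and DESeq2. NCoR at -144.8 kb fell from 278 and 351 to 144 and 134 (-1.18 ± 0.20, adjusted p = 0.000981).

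The inhibitor genes had few calls. Cdkn1a, which encodes p21, rose at 2 (5.88%, against 27%) and fell at 1 of 34 regions (2.94%, against 10.6%), all for p300. Its strongest p300 and NCoR region, at +1.7 kb in an intron, held p300 at 196 and 188 with Veh and 207 and 198 with KLA, and NCoR at 219.9 and 277 and 199 and 193. Neither passed, with changes of 0.08 ± 0.15 and -0.34 ± 0.19. PU.1 at the promoter of an upstream TSS, at -0.3 kb of that TSS, measured 201 and 212 with Veh and 132 and 162 with KLA, a change of -0.49 ± 0.10. The 3 p300 calls, named after their values were seen, were a fall at -0.1 kb from 50.8 and 56.5 to 24.6 and 23.8 (-1.15 ± 0.30, adjusted p = 0.00356) and rises at +17.8 and +20.3 kb (1.42 ± 0.23 and 1.67 ± 0.29), the first of which was under 2-fold with TMM and DESeq2. Cdkn1b, which encodes p27, rose at 3 (17.6%, against 31.6%) and fell at 1 of 17 regions (5.88%, against 11.4%). The rises lay at +3.3 kb in an intron and were chosen after their values were seen. p300 there went from 0.627 and 4.6 to 53.2 and 53.5 (4.34 ± 0.54, adjusted p = 4.09e-06) and p65 from 2.63 and 2.8 to 54.8 and 48.6 (4.21 ± 0.56, adjusted p = 8.26e-05). NCoR at +3.3 kb went from 15.5 and 3.53 to 41.3 and 24.2 (1.77 ± 0.63, adjusted p = 0.0399), a call that ended under DESeq2 and without 3 of the 4 libraries, the first Veh library being the exception (adjusted p = 0.0596 to 0.482). The 1 fall was p65 at -3.1 kb, from 44.7 and 28.9 to 16 and 10.9, and it ended without either KLA library (adjusted p = 0.109 and 0.215).

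E2f1, an activator of S phase genes, gained factors at -4.4 kb, between genes, where 6 of 7 factors with a peak rose. p65 went from 12.3 and 9.32 to 181 and 206 (4.15 ± 0.31, adjusted p = 2.16e-06). p300 went from 15 and 13.1 to 155 and 104 (3.19 ± 0.29, adjusted p = 1.24e-07). PU.1 went from 43.4 and 45.4 to 174 and 151 (1.87 ± 0.14, adjusted p = 1.22e-24), one of 3 PU.1 rises at the 10 loci. The others were 2 neighbouring peaks of Ccnd1, at -50.9 and -52.0 kb. NCoR at E2f1 went from 9.56 and 8.24 to 68.8 and 72.6 (2.98 ± 0.41, adjusted p = 0.00038) and HDAC3 from 16.7 and 13.3 to 70.9 and 132 (2.72 ± 0.44, adjusted p = 1.21e-08). Fosl2 went from 4.23 and 14.7 to 55.9 and 160.2 (3.47 ± 0.93), with an adjusted p of 0.703 and 0.340 without either Veh library. ERK1 measured 9.44 and 19.7 with Veh and 46.7 and 40.8 with KLA (1.55 ± 0.58, adjusted p = 0.0959). At the E2f1 5' UTR, +0.2 kb, PU.1 stood at 319 and 349.8 with Veh and 275 and 267 with KLA (-0.30 ± 0.08), short of 2-fold. No PGC1β region was listed for E2f1 or Cdkn1b in the Veh and KLA table.

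E2f2, another activator, rose at 5 (16.7%, against 27.3%) and fell at 9 of 30 regions (30%, against 10.5%). Its positions refer to different TSSs, and the region at -1.1 kb (from chr4:136179548) lies downstream of that at +2.7 kb (from chr4:136174885). At -1.1 kb p65 went from 17.5 and 28 to 104 and 149 (2.47 ± 0.35, adjusted p = 0.000126) and PU.1 from 49.1 and 38.6 to 82.4 and 65.6 (0.74 ± 0.18, adjusted p = 0.000178), the latter under 2-fold. HDAC3 at -1.1 kb went from 48 and 63.6 to 82.6 and 156 (1.06 ± 0.37), a call that ended under TMM, under DESeq2 and without 3 of the 4 libraries, all but the first KLA library (adjusted p of up to 0.528, or a change of 0.55). PGC1β there went from 8.23 and 26.5 to 68.8 and 34.3 (1.50 ± 0.48), with adjusted p of 0.407 and 0.0628 without the first Veh or the first KLA library. At +2.7 kb, inside the gene, p300 fell from 57.7 and 53.9 to 8.18 and 12.4 (-2.43 ± 0.37, adjusted p = 3.09e-05). PU.1 at that place, chosen after its values were seen, fell from 50.2 and 34.9 to 7.2 and 11.5 (-2.19 ± 0.27, adjusted p = 1.67e-12). The strongest NCoR and PU.1 region of E2f2, at +4.8 kb, held NCoR at 157 and 160.1 with Veh and 168 and 147 with KLA, which overlapped.

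Rb1, the pocket protein that holds E2F factors back, rose at 2 (7.14%, against 27.1%) and fell at 4 of 28 regions (14.3%, against 11.3%). PU.1 at -11.1 kb fell from 113 and 122 to 15.7 and 15.3 (-2.92 ± 0.20, adjusted p = 1.13e-27), the lowest p of any PU.1 fall at the 10 loci. At the shared site of -8.2 kb, between genes, PU.1 measured 359 and 420.1 with Veh and 302 and 315 with KLA (-0.33 ± 0.08), p300 117 and 104 and 79.8 and 76.7 (-0.49 ± 0.19), and NCoR 106 and 104 and 89.1 and 76.1 (-0.35 ± 0.24). All were lower with KLA and none by over 2-fold. p300 fell at -28.8 kb from 9.4 and 32.9 to 0 and 0.54 (-5.98 ± 1.02, adjusted p = 9.78e-05) and at -0.3 kb from 19.4 and 29.6 to 11.3 and 5.94 (-1.49 ± 0.49, adjusted p = 0.0144), the latter with an adjusted p of 0.179 without the last KLA library. NCoR at the Rb1 promoter went from 103 and 108 to 66.4 and 66.4 (-0.67 ± 0.25).

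In the PGC1β experiment with DMSO, KLA against Veh gave calls at 7 of 70 regions of the 10 genes, 5 up and 2 down, against 17.6% of all regions in either direction. The gained sites were again in Cdk6 and Ccnd1. PGC1β at Cdk6 +12.0 kb went from 38.2 and 14.6 to 138 and 152 (2.38 ± 0.40, adjusted p = 0.000152). At Ccnd1 -52.1 kb it went from 33.3 and 51 to 84.9 and 115 (1.27 ± 0.40), a call that ended under TMM and DESeq2 and without the first Veh or the last KLA library (adjusted p = 0.227 and 0.178). Ccnd1 -31.2 kb fell from 21.9 and 45.2 to 1.97 and 0, with an adjusted p of 0.109 to 0.276 without the last KLA library or either Veh library. Without the last Veh library 3 calls were left in place of 7. TMM moved the median of all regions by -0.44, and gave 3 rises and 3 falls.

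Adding the ERK inhibitor to KLA changed PGC1β at 1 of 70 regions, against 0.286% of all regions. PGC1β at Cdkn1a +7.4 kb, annotated as the transcription termination site of the p21 gene, rose from 0 and 8.93 with DMSO and KLA to 97 and 76.3 with ERKi and KLA (4.09 ± 0.77, adjusted p = 0.0221). With DMSO and Veh the same region held 12.2 and 17.5. The call ended without the first DMSO KLA library or either ERKi library (adjusted p = 0.0797 to 0.133). Other Cdkn1a regions, named after their values were seen, did not pass. PGC1β changed by 2.19 ± 0.85 at +0.7 kb, 2.50 ± 0.95 at +7.0 kb and 1.77 ± 0.73 at +11.3 kb. Adjusted p there was 0.230 to 0.269. It was lower with ERKi at +1.8 and +17.7 kb of Cdkn1a (-0.51 ± 0.31 and -0.34 ± 0.47). Of the sites gained in this experiment, Cdk6 +12.0 kb and Ccnd1 -52.1 kb had overlapping KLA and ERKi libraries. Cdk6 +12.0 kb held 138 and 152 without and 172 and 120.2 with the inhibitor (0.01 ± 0.36), and Ccnd1 -52.1 kb 84.9 and 115 and 116 and 87.9 (0.02 ± 0.38). At Ccnd1 -89.9 kb, a gained site chosen after its values were seen, the libraries did not overlap, with 94.7 and 67 without and 26.6 and 5.17 with the inhibitor, but the change did not pass (-2.37 ± 0.66, adjusted p = 0.1). This comparison and the one before it share the DMSO KLA libraries.

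NCoR with ERKi and KLA was lower than with KLA alone at 31 of 79 regions (39.2%, against 48.6% of all regions) and higher at 1. The inhibitor and a later library date cannot be told apart, and the KLA libraries are those of the NCoR comparison with Veh. The fall was general: the median change was -1.01 at the 10 loci and -1.20 over all regions, and TMM, which moved that median by 1.16, left 1 fall and 6 rises. Without the first KLA library 11 calls were left in place of 32. Over the promoters of 10 macrophage markers NCoR summed to 1746 to 1985 with KLA and 722 to 823 with ERKi and KLA, and its part in the result was not tested. Relative to other regions, Rb1 -8.2 kb stood out, falling from 89.1 and 76.1 to 12.7 and 19 (-2.38 ± 0.34, adjusted p = 0.000212), a call that TMM, DESeq2 and the removal of each library left in place. Among the sites that had gained NCoR with KLA, E2f1 -4.4 kb went from 69.7 and 72.6 to 16.1 and 33.6 (-1.52 ± 0.42, adjusted p = 0.00934) and Ccnd1 -52.1 kb from 309 and 282 to 149.6 and 95.7 (-1.27 ± 0.23, adjusted p = 0.000719). The E2f1 call ended without either KLA library (adjusted p = 0.0821 and 0.0946), and without the last ERKi library the Ccnd1 change was -0.98. Myc +14.4 kb went from 305 and 268 to 129 and 127 (-1.16 ± 0.19, adjusted p = 0.000417) and Cdkn1a +1.7 kb from 207 and 196 to 93 and 62.9 (-1.37 ± 0.23, adjusted p = 0.000525), near the all-region median. In contrast, Ccnd3 +3.1 kb went from 379.9 and 349 to 238 and 221 (-0.67 ± 0.16) and E2f2 +4.8 kb from 168 and 147 to 144 and 147 (-0.12 ± 0.20). The 1 rise was a weak region, E2f2 -12.9 kb, at 0 and 0.692 with KLA and 12.7 and 12.9 with ERKi (4.74 ± 1.27, adjusted p = 0.00745), with an adjusted p of 0.148 and 0.0858 without either KLA library.

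In osteoclast cultures, p300 rose between day 0 and day 4 at 13 of 20 regions of the 10 genes (65%, against 62.2% of all regions). The median change was 1.82, against 1.84 over all regions, so the loci moved with the rest, and the median of all regions moved by -1.61 with TMM, which left 1 call. Cdk6 -144.8 kb had the lowest p, going from 9.67 and 12.8 to 96.8 and 69.2 (2.93 ± 0.50, adjusted p = 0.000729). Myc +14.4 kb went from 33.4 and 19.2 to 80.2 and 65.8 (1.40 ± 0.44, adjusted p = 0.0155) and Cdkn1a +1.6 kb from 22 and 19.2 to 57.7 and 65.8 (1.56 ± 0.47, adjusted p = 0.0129), both below the all-region median. Cdk6 -145.3 kb, which had lost factors with KLA in BMDMs, went from 9.67 and 0 to 32.3 and 39.7 (2.50 ± 0.81, adjusted p = 0.0175). Without the first day 4 library 2 calls were left in place of 13, and the calls at Myc +14.4 kb, Cdkn1a +1.6 kb and Cdk6 -145.3 kb ended without either day 4 library (adjusted p = 0.148 to 0.333). Over the promoters of 6 of 9 osteoclast markers, p300 summed to 157 to 172 at day 0 and 808 to 944 at day 4, and its part in the result was not tested.

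ERK1 in the same cultures gave 0 calls of 20 regions in edgeR and in DESeq2, with 6 at an unadjusted p under 0.05, against 2.35% of all regions called. The last day 4 library carries a later date in its label than the other 3 libraries, and without it there were also 0 calls. The name of that last day 4 library also lacks the NCoRWT of the other ERK1 libraries. The median change was 1.05, against 1.00 over all regions. Cdk6 -148.3 kb measured 2.58 and 14.7 at day 0 and 32.7 and 60.9 at day 4 (2.47 ± 0.75, adjusted p = 0.0646). Myc +14.4 kb measured 33.6 and 52.5 and 103 and 46.6, which overlapped.

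H3K27ac in the NCoR deletion experiment was sparse, and 11 of 24 regions of the 10 genes had enough tags to be tested. KLA lowered 1 of the 11 in WT (9.09%) and 2 in NKO (18.2%), and raised none. Of all regions 10.2% in WT and 10.7% in NKO were called, counting both directions. Ccnd3 +18.6 kb fell in both, from 26.5 and 32.1 to 11.3 and 8.96 in WT (-1.52 ± 0.42, adjusted p = 0.00839) and from 36.1 and 35.4 to 9.56 and 14.6 in NKO (-1.58 ± 0.41, adjusted p = 0.00496). The Rb1 promoter fell in NKO from 101 and 98.7 to 56.3 and 41.7 (-1.01 ± 0.23, adjusted p = 0.00135) and went from 119.8 and 81 to 85.5 and 60 in WT (-0.45 ± 0.22, adjusted p = 0.166). The genotype difference in these KLA responses was not called at the 10 loci: 0 of 11 interactions passed in edgeR and in DESeq2, with 1 at an unadjusted p under 0.05, against 0.697% of all regions called. The Ccnd3 call ended without the last Veh or the last KLA library in WT (adjusted p = 0.118 and 0.0738) and without the first KLA library in NKO (0.0915). That of Rb1 ended under TMM and DESeq2 and without the first Veh or the last KLA library (changes of -0.996 and -0.826).

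NKO differed from WT at 1 region of the 10 genes with Veh, against 1% of all regions, and at the same region with KLA, against 0.789%. This was Cdk6 -145.3 kb, where NCoR, HDAC3 and PU.1 fell with KLA. With Veh it held 21.4 and 19.9 in WT and 49.4 and 51.7 in NKO (1.29 ± 0.32, adjusted p = 0.0224). With KLA it held 21.4 and 17.9 in WT and 45.1 and 58.3 in NKO (1.38 ± 0.33, adjusted p = 0.0208). Both NKO libraries were above both WT libraries under either treatment. The Veh call ended under TMM, under DESeq2 and without any 1 of its 4 libraries (adjusted p = 0.0721 to 0.320), and the KLA call without either WT library or the last NKO library (0.0513 to 0.197). With Veh, H3K27ac over the promoters of 6 of 10 macrophage markers summed to 465 to 475 in WT and 562 to 624 in NKO, and with KLA to 382 to 428 and 384 to 449. KLA changed the site little in this experiment, with overlapping libraries (-0.07 ± 0.35 in WT and 0.03 ± 0.30 in NKO). In the other H3K27ac experiments, described below, the site was lower with KLA. It changed by -1.02 ± 0.21 with DMSO, -0.51 ± 0.10 in flox and -0.94 ± 0.10 in flox Cre. The flox and flox Cre changes were under 2-fold, and the all-region medians were -0.42, -0.45 and -0.62. Myc +14.5 kb held 10.1 and 9.17 in WT and 11.8 and 8.13 in NKO with Veh, which overlapped.

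**Figure D4:**
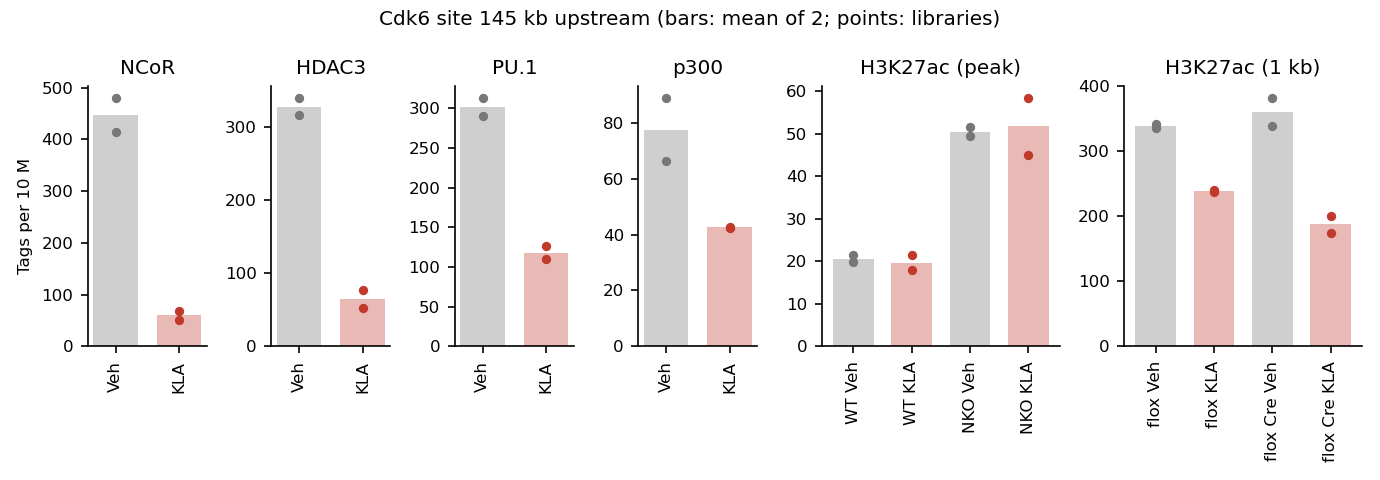
Tags per 10 M in each library at the Cdk6 -145.3 kb site for NCoR, HDAC3, PU.1 and p300 with Veh and KLA and for H3K27ac in the NCoR (WT, NKO) and PGC1b (flox, flox Cre) experiments; the vertical axes differ between panels. NCoR sits at 415 and 479 with Veh and 68.8 and 51.9 with KLA, and H3K27ac with Veh at 21.4 and 19.9 in WT and 49.4 and 51.7 in NKO.

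In wild type BMDMs with DMSO, KLA lowered H3K27ac at 5 of 22 regions of the 10 genes (22.7%, against 28.1% of all regions). The inhibitor RGFP966, added to KLA, raised it at 8 of 22 (36.4%, against 26.9%) and lowered it at 1 (4.55%, against 9.53%). These comparisons share the DMSO KLA libraries, so a low DMSO KLA value moves them in opposite directions. The median at the 10 loci was -0.62 with KLA, against -0.42 over all regions, and 0.61 with RGFP966, against 0.39. TMM moved the all-region medians by 0.42 and -0.34, leaving 2 falls with KLA, and 7 rises and 4 falls with RGFP966. DESeq2 gave 1 rise and 2 falls with KLA. Without the first Veh library 2 KLA calls were left in place of 5.

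At Myc +14.4 kb acetylation was 83.9 and 62.8 with DMSO and Veh, 39.5 and 26.1 with DMSO and KLA and 119.8 and 112 with RGFP966 and KLA. KLA changed it by -1.14 ± 0.27, adjusted p = 0.000101, and RGFP966 by 1.80 ± 0.26, adjusted p = 1.06e-10. The inhibited libraries were above all others. The KLA call there was under 2-fold with TMM, with DESeq2 and without the first Veh or last KLA library (-0.92 and -0.89), while the RGFP966 call outlasted each of these. At +17.7 kb, chosen after its values were seen, the levels were 45.7 and 54.9, then 13.6 and 13.5, then 63.2 and 62.3. Around the Myc 5' UTR, at +0.2 kb, they were 92.2 and 55.8, then 52.5 and 44.6, then 74.4 and 64.4, and neither change passed.

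Rb1 -8.2 kb also fell with KLA and rose with RGFP966, with 181 and 161, then 49.2 and 43.8 (-1.87 ± 0.24, adjusted p = 2.22e-13), then 150.1 and 108 (1.46 ± 0.24, adjusted p = 2.49e-08). Cdk6 -145.3 kb had 277 and 256, then 147 and 114 (-1.02 ± 0.21), then 356 and 278 (1.27 ± 0.21). At Cdk6, both changes were under 2-fold with TMM and DESeq2, the KLA one also without the first Veh or last KLA library (-0.97 and -0.86). Ccnd1 -1.8 kb had 40.7 and 41, then 25.3 and 21, then 82.3 and 71.8 (1.72 ± 0.28, adjusted p = 1.95e-08), above its starting level. The promoters of Rb1, E2f1 and Cdkn1b had lower values with RGFP966 than without it. The Rb1 promoter had 243 and 192, then 101 and 94.2 (-1.15 ± 0.22, adjusted p = 1.27e-06, under 2-fold with TMM, DESeq2 and without the first Veh library), then 69.1 and 49.5, and that of E2f1, at +0.3 kb, 209 and 182, then 132 and 95.1, then 65.8 and 53.5. The RGFP966 changes were -0.72 ± 0.24 and -0.94 ± 0.24, under 2-fold, and the 1 fall was at E2f1 -0.1 kb (-1.02 ± 0.27, adjusted p = 0.000405), which ended without the first DMSO KLA or last RGFP966 library (adjusted p = 0.102, and a change of -0.80). Cdkn1b at -0.1 kb had 302 and 268, then 196 and 172, then 136 and 108. Over the promoters of 9 of 10 macrophage markers, H3K27ac summed to 3998 to 4010.2 with DMSO and Veh, 3321 to 4067 with DMSO and KLA and 2644 to 2994 with RGFP966, and its part in these results was not tested.

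In the PGC1b experiment KLA lowered H3K27ac at 12 of 23 regions of the 10 genes in flox BMDMs (52.2%, against 25.6% of all regions) and at 11 in flox Cre (47.8%, against 32.5%). The medians were -1.05 and -0.95, against -0.45 and -0.62 over all regions. At Myc, 5 of 6 tested regions fell in both genotypes, those from -0.8 to +17.7 kb. Myc +14.4 kb went from 148 and 154 to 45.9 and 38.5 in flox (-1.84 ± 0.18, adjusted p = 1.75e-21) and from 137 and 167 to 40.4 and 47.5 in flox Cre (-1.78 ± 0.19, adjusted p = 5.36e-20). Myc +0.2 kb went from 254 and 235 to 82.1 and 81.9 in flox (-1.58 ± 0.14, adjusted p = 1.88e-26) and from 208 and 213 to 68.6 and 61.2 in flox Cre (-1.70 ± 0.15, adjusted p = 1.09e-26). The groups did not overlap at either place, and these 4 calls outlasted TMM, DESeq2 and the removal of each library. The E2f1 exon region at +0.3 kb went from 307 and 297 to 133 and 114 in flox (-1.29 ± 0.12, under 2-fold with TMM and DESeq2) and from 221 and 285 to 80.9 and 72.9 in flox Cre (-1.72 ± 0.14). The Rb1 promoter went from 327 and 371 to 146 and 173 in flox (-1.13 ± 0.11, also under 2-fold with TMM and DESeq2). Cdkn1a +1.8 kb had higher values after KLA, 122 and 139 and then 163 and 182 in flox (0.40 ± 0.14, adjusted p = 0.00624) and 118 and 113 and then 202 and 231 in flox Cre (0.91 ± 0.14, adjusted p = 1.64e-10), both under 2-fold. TMM moved the all-region medians by 0.43 and 0.61, giving 1 rise and 4 falls in flox and 3 rises and 8 falls in flox Cre. The flox call at Ccnd2 -12.0 kb ended without any 1 of the 4 libraries (adjusted p = 0.0556 to 0.111) and under TMM and DESeq2.

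The genotypes were compared directly as well. With Veh, flox Cre against flox gave 0 calls of 23 regions in edgeR and in DESeq2, with 7 at an unadjusted p under 0.05, against 0.397% of all regions called. With KLA 3 of 23 regions were lower in flox Cre (13%, against 6.81% of all regions). Ccnd1 -1.8 kb held 56.3 and 49.6 in flox and 17.3 and 19.5 in flox Cre after KLA (-1.52 ± 0.25, adjusted p = 3.51e-08), and 160.5 and 145 and 120.3 and 118 after Veh. Ccnd1 -90.8 kb held 129 and 122 and 48.4 and 62.5 after KLA (-1.17 ± 0.16, adjusted p = 1.68e-11), and 258 and 236 and 234 and 222 after Veh. At both of these Ccnd1 regions the ratio of flox to flox Cre was larger after KLA than after Veh. It was 2.87 against 1.28 at -1.8 kb and 2.27 against 1.08 at -90.8 kb. In tags the gap widened at -90.8 kb and was about the same at -1.8 kb. Rb1 -8.2 kb held 41.6 and 42.2 in flox and 24.6 and 16.3 in flox Cre after KLA (-1.05 ± 0.27, adjusted p = 0.000526), with an adjusted p of 0.0535 without the last flox Cre KLA library. At Myc +14.4 kb the genotypes overlapped after KLA (0.06 ± 0.22). TMM moved the all-region median of -0.38 by 0.39, and the falls at Ccnd1 -90.8 kb and Rb1 -8.2 kb were then under 2-fold, as they were with DESeq2.

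The interaction of genotype and KLA was called at 4 of 23 regions, 3 of them negative, against 5.37% of all regions. It was -1.15 ± 0.31, adjusted p = 0.00204 at Ccnd1 -1.8 kb and -1.05 ± 0.20, adjusted p = 6.7e-06 at Ccnd1 -90.8 kb. As a ratio, the fall with KLA at these regions was therefore larger in flox Cre. In tags, the loss was larger in flox Cre at -90.8 kb and about the same in both genotypes at -1.8 kb. The other tested Ccnd1 region, -41.9 kb, had few tags and a difference of the opposite sign that did not pass (3.29 ± 1.37, adjusted p = 0.0784). It held 12.3 and 3.46 with Veh and 2.45 and 0.62 with KLA in flox, and 0 and 4.64 and 3.61 and 5.21 in flox Cre. The interaction was -1.01 ± 0.34, adjusted p = 0.0188 at Rb1 -8.2 kb and, in the other direction, 1.21 ± 0.40, adjusted p = 0.0168 at Ccnd3 +3.0 kb, where flox went from 49.4 and 54 to 33.1 and 27.3 and flox Cre from 30.6 and 28.5 to 36.1 and 43.6. Cdk6 -145.3 kb gave -0.43 ± 0.14, adjusted p = 0.0151, under 2-fold. The 3 negative calls ended under TMM, which left 1 call in all, and DESeq2 left 0. Leaving out single libraries ended the call at Rb1 -8.2 kb for 3 of 8 libraries (adjusted p = 0.0781 to 0.203) and at Ccnd3 +3.0 kb for 4 (0.0593 to 0.101). At Ccnd1 -90.8 kb it was -0.99 without the last flox Veh library and -0.89 without the first flox Cre KLA library. Over the promoters of 9 of 10 macrophage markers, H3K27ac summed to 3485 to 3564 in flox with Veh, 3511 to 3593 in flox with KLA, 3089 to 3137 in flox Cre with Veh and 1799 to 1814 in flox Cre with KLA. The part of that lower marker acetylation in the differences of the flox Cre KLA libraries was not tested.

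**Figure D5:**
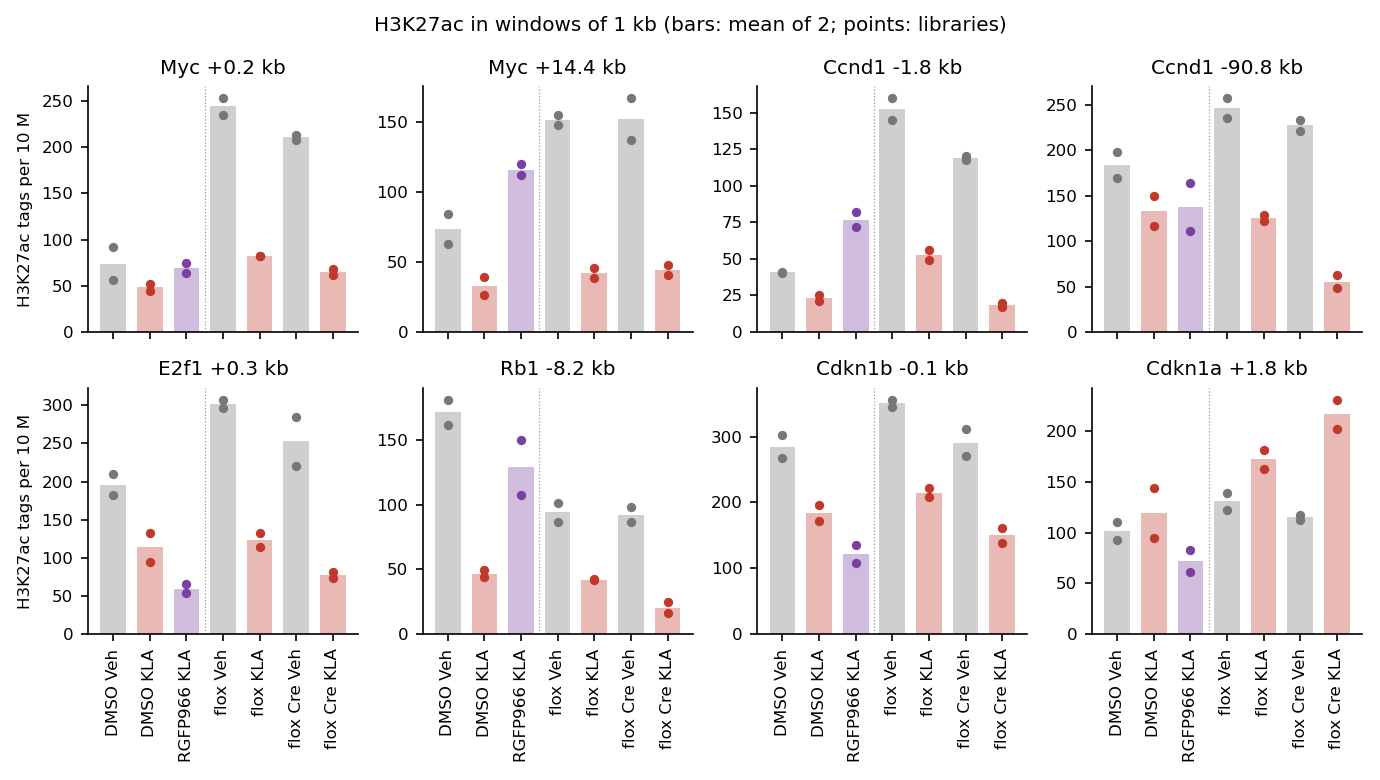
H3K27ac in tags per 10 M in 1-kb windows, one point per library, for 8 regions of the 10 genes in the RGFP966 experiment (DMSO Veh, DMSO KLA, RGFP966 KLA) and the PGC1b experiment (flox and flox Cre, Veh and KLA). At Myc +14.4 kb the DMSO KLA libraries sit at 39.5 and 26.1 and the RGFP966 KLA libraries at 119.8 and 112.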

How the data were processed

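Raw tag counts per region were deposited by the authors in 15 tables holding 70 of 100 samples, and the 30 input libraries were not analysed here. The authors aligned reads to mm10 with Bowtie2, made HOMER tag directories, kept reproducible peaks merged over conditions and counted at most 3 tags per position. Versions are not given in the sources used here, and the submitters' processing notes also list DESeq2. H3K27ac was counted at open regions, in 1-kb windows for the RGFP966 and PGC1b tables. HOMER assigned each region to the nearest TSS, and for Ccnd1 these distances differ by about -94 bp from the RefSeq start.

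Counts were tested with the edgeR quasi-likelihood F-test (edgeR 4.0.16, R 4.3.3), 1 fit per table, with library sizes set to the totals in the column headers and Benjamini-Hochberg adjustment over all regions of the table. Regions needed 4 tags (factors) or 16 tags (H3K27ac) in at least 1 library. All 548 factor regions of the 10 genes passed, as did 11 of 24, 22 of 24 and 23 of 24 H3K27ac regions in the NCoR, RGFP966 and PGC1b experiments. A fold against a group at 0 is a lower bound with a floor of 3 counts over the group. The script was tested on simulated data. Intervals were not computed, and SEs reflect 2 libraries per group.

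The alternatives were TMM scaling, DESeq2 1.42.0 (Wald test), no filter, a replicate block, and leaving out each library. Replicate numbers did not pair the libraries: over 31 pairs of groups the deviations from the group means correlated by -0.0266 to 0.0255. Named regions were each gene's promoter region and strongest region per table, the called region with the lowest p in each direction over all members per comparison, and each gene's site shared by the most factors. Further factors at those sites, and the regions said so in the text, were chosen after their values were seen. These include NCoR and PU.1 at Ccnd3 -26.0 kb, NCoR, HDAC3, PGC1β and Fosl2 at Cdk6 +12.0 kb, and p300 and PGC1β at Myc +0.2 kb. The members and gene lists were chosen with earlier results of these data known. Of the regions that this rule names, 1 site is not reported here. Sequences were read with pysam 0.24.0 and figures drawn with matplotlib 3.10.9.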

Additional observations from a re-analysis of the deposited data

Results flagged for a closer look

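In the PGC1b experiment the H3K27ac response to KLA differed between flox and flox Cre BMDMs at 4 regions, by an edgeR test of the interaction itself (log2 change in flox Cre minus log2 change in flox). The difference was -1.15 at Ccnd1 -1.8 kb, -1.05 at Ccnd1 -90.8 kb, -1.01 at Rb1 -8.2 kb and 1.21 at Ccnd3 +3.0 kb. TMM left only the call at Ccnd3 +3.0 kb, and DESeq2 left 0. Flox Cre KLA libraries also held less H3K27ac at macrophage marker promoters than the other groups, and the part of this in the 4 differences was not tested.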

How the results depend on the processing

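Calls depended on the scaling and on single libraries. TMM and DESeq2 gave 9 and 12 called regions of the 10 genes for Fosl2 with KLA (5 as reported), 7 and 9 for NCoR with ERKi (32), 1 and 0 for p300 at day 4 (13), 1 and 1 for H3K27ac with KLA in NKO (2), 0 and 0 for NKO against WT with Veh (1), 2 and 3 for H3K27ac with KLA in DMSO (5), 5 and 5 in flox (12), 1 and 1 for flox Cre against flox with KLA (3), and 1 and 0 for the PGC1b interaction (4). Without the filter NKO against WT with KLA had 2 calls in place of 1. The direction turned, with no call, for NCoR with ERKi at Myc +14.4 kb (0.00894 with TMM, 0.0221 with DESeq2) and Cdk6 -144.8 kb (0.018, 0.0305), and for p300 at day 4 at Myc +14.4 kb (-0.225, -0.0858), E2f2 +4.8 kb (-0.236, -0.058) and Cdkn1a +1.6 kb (-0.0596 with TMM). TMM left a median over all regions of 0.236 for p65 with KLA and 0.222 for p300 at day 4, in place of 1.46 and 1.84, and whether the general shift is biological was not tested.

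The replicate block, fitted although numbers did not pair the libraries, gave 1 call for Fosl2 with KLA in place of 5 and 1 for ERK1 at day 4 in place of 0, and kept 105 of 110 named calls. With each library left out, calls ranged from 9 to 31 for NCoR with KLA, 8 to 20 for HDAC3, 5 to 21 for PGC1β, 1 to 8 for ERK1, 30 to 51 for p300, 16 to 49 for p65, 0 to 15 for Fosl2, 21 to 24 for PU.1, 3 to 8 for PGC1β in DMSO, 0 to 1 for PGC1β with ERKi, 11 to 31 for NCoR with ERKi, 0 to 2 for ERK1 at day 4 and 2 to 16 for p300 at day 4. For H3K27ac they ranged from 0 to 1 for KLA in WT, 1 to 2 in NKO, 0 to 0 for NKO against WT with Veh, 0 to 1 with KLA, 0 to 0 for their interaction, 2 to 7 in DMSO, 8 to 12 with RGFP966, 10 to 12 in flox, 12 to 14 in flox Cre, 0 to 0 for flox Cre against flox with Veh, 2 to 4 with KLA, and 2 to 4 for the PGC1b interaction. Among the 110 named calls, 70 kept direction and threshold with TMM and 69 with DESeq2. With 1 library left in a group, its spread was taken from the other group.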

Other observations

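Other cell cycle genes, in lists chosen with earlier results of these data known, gave these counts with KLA. Of all p300 regions 42.1% rose and 12.9% fell. CDK inhibitor genes other than the members rose for p300 at 18 of 24 regions, with a median log2 change of 2.27 against 0.65 over all regions. Cdkn2b, which encodes p15, rose at -180.1 kb from 0 and 1.31 to 63.4 and 48.1 tags per 10 M. Mitosis genes rose for p300 at 14 and fell at 4 of 32 regions, p53 axis genes at 20 and 5 of 52, E2F, DP and pocket protein genes at 10 and 5 of 29, Myc network genes at 10 and 6 of 47, S phase genes at 5 and 3 of 24, and other G1/S cyclin and kinase genes at 2 and 2 of 8. For the mitosis and p53 axis genes the share that rose was near that of all regions. Mdm2, whose product restrains p53, rose at -4.5 kb from 15.7 and 13.8 to 254 and 225. Ccne1, which encodes cyclin E1, rose at -16.8 kb from 0.627 and 0 to 74.2 and 60.0.

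H3K27ac in flox BMDMs fell with KLA at 47 and rose at 2 of 115 regions of these 58 genes, with a median of -0.84, against 25.6% of all regions that fell and a median of -0.45. Ccne2, which encodes cyclin E2, fell at its promoter from 84.7 and 84.5 to 9.80 and 10.5. Pcna, the sliding clamp of DNA replication, fell at +0.4 kb from 183 and 224 to 79.6 and 37.8. Of the 2 rises, Mycl, a relative of Myc, went at -4.6 kb from 7.29 and 8.31 to 113 and 102, and p65 at the same distance from 43.8 and 57.8 to 344 and 313.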
